A study of Mus musculus with 22 samples.

Results

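Genes of the circadian clock were described in thymus, cerebrum and cerebellum of Tol-transgenic mice and their wild-type littermates: Per1, Per2, Per3, Cry1, Cry2, Arntl, Nr1d1, Nr1d2, Dbp and Ciart. They were chosen by name as core clock components and clock-controlled outputs, by a rule that uses no measured value, though with earlier results of these data known, and are 10 of the 34585 entries in each count table. All 10 passed the filter on low counts in every comparison. The mice are of the C57BL/6 strain, and Tol mice are heterozygous for a scrambled open reading frame of reporter protein fragments, placed 3′ of Col1a1 under the ubiquitous CAG promoter. The insertion was made in embryonic stem cells by cassette exchange, so all Tol mice carry the transgene at a single site. Thymus and cerebrum were each sequenced from 4 mice per genotype and cerebellum from 2 Tol and 4 WT mice, with no treatment named in the labels, and p-values measure the spread between these samples. The time of day at which tissue was taken, which sets the level of most clock genes, is not given in the sources used here.

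In the circadian clock, the activator Arntl (BMAL1) pairs with CLOCK and switches on genes that carry E-boxes. The products of the Period and Cryptochrome genes accumulate, enter the nucleus and repress that pair, which closes a loop of about a day, while the nuclear receptors Nr1d1 and Nr1d2 (REV-ERBα and REV-ERBβ) repress Arntl itself. Dbp, an activator that binds D-boxes, and Ciart (CHRONO), a repressor of the BMAL1 pair, are direct outputs of the loop. Most organs run such a clock, set by the suprachiasmatic nucleus of the hypothalamus through nerves, temperature and hormones, and Per1 is also induced directly by glucocorticoids and by neuronal activity.

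The stretches before the annotated starts were searched for the short elements through which clock factors are known to act. RefSeq windows on GRCm38.p6, reaching from 250 bases before to 50 bases after a gene's start, were held for 9 of the 10 members in 11 windows. Per2 had none. The E-box CACGTG was found on either strand in the windows of Per1, Cry1 and Ciart, against 7.15% of all 32851 windows. The weaker E′-box CACGTT was found in Cry1, Cry2 and Nr1d1 (4.68% of all windows), and the D-box TTATGTAA in Per3 (0.938% of all windows). TAGGTCA, the core of the element bound by ROR and REV-ERB receptors, was found in Arntl past its start (2.61% of all windows). TTACGTAA (0.119% of all windows), TGGGTCA (3.98%) and the cAMP response element TGACGTCA (1.79%) were in no member's window, and 4 of the 11 windows, including that of Dbp, held none of these motifs. The stretches of Per1 (chr11:69098699-69098947, plus strand), Per3 (chr4:151044666-151044915, minus strand), Cry1 (chr10:85185065-85185304, minus strand) and Ciart (chr3:95882252-95882478, minus strand) are shown 5′ to 3′ because they hold the E-boxes and D-boxes found before a start. Capitals mark these motifs, the E′-box of Cry1 reading AACGTG on the printed strand, and bases inside annotated exons were left off. A match is a description of letters, not a measured binding site.
Per1: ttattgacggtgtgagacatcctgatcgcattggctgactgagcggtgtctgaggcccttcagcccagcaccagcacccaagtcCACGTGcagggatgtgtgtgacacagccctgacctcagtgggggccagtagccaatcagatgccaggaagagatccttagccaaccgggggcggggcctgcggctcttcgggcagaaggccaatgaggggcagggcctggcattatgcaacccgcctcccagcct
Per3: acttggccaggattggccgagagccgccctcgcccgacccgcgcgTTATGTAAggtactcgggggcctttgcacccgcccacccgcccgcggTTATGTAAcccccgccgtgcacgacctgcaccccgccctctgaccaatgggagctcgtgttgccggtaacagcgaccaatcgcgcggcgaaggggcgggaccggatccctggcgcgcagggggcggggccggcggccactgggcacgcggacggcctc
Cry1: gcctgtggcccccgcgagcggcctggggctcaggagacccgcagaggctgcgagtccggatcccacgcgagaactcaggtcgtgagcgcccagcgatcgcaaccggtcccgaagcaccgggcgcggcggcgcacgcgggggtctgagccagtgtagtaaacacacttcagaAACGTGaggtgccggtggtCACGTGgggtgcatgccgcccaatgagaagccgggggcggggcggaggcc
Ciart: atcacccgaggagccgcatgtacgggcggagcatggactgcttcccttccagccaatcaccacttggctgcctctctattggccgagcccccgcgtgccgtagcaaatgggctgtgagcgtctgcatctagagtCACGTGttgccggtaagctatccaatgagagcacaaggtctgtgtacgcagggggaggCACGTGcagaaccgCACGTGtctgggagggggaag
The Per1 window belongs to a start inside the gene, 3732 bases past the first base of the gene in GENCODE, so its E-box, 166 bases before that start, lies within the gene body as annotated. The other Per1 window, at a start 4935 bases past that base, held no motif. Ciart held 3, at 116, 58 and 44 bases before. Cry1 held an E-box 60 bases and an E′-box 79 bases before its start. Per3 held 2 copies of the D-box, at 205 and 158 bases before.

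Library totals ranged from 14543698 to 34776973 estimated counts, and the Tol transcript had at least 448 counts in each Tol library and at most 2 in each WT library. Levels are given as CPM, read counts scaled to a common library size by TMM over all 22 libraries. The organs carried their markers: 6 thymocyte genes summed to between 6289 and 9060 CPM in thymus, and 6 cortical neuron genes to between 1525 and 2014 CPM in cerebrum. The library labelled cerebellum Tol 2 went against its label. Its 6 granule cell markers, including Gabra6, summed to 147 CPM against 1944 to 4508 CPM in the other cerebella, and each lay below all others. Its 5 thalamus markers summed to 366 CPM against 108 to 234, of which Tcf7l2 alone gave 274 CPM. Of these markers 3 lay above all others and Plekhg1 lay within their range. Prkcd lay below all others, at 16.5 CPM against 48.95 to 78.4 CPM. Cerebellum WT 2 was the next lowest in granule cell markers, and WT 2 and WT 4 carried choroid plexus markers at 1319 and 4741 CPM against 15.3 to 20.6 CPM in the other 4. The members' fold changes and the lists' medians in cerebellum are therefore given with and without this library, and without it a single Tol library is left, assumed to vary like the WT libraries. In cerebrum, WT 3 and Tol 4 carried thymocyte markers at 43.8 and 23.9 CPM against 3.73 to 7.32 CPM in the other 6, and Tol 3 carried pineal and pituitary markers at 60.0 CPM against 1.38 to 3.75 CPM in the other 7. In whole tissue, fewer cells of a type and less RNA per cell cannot be told apart.

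Members differed most between organs. In WT thymus against WT cerebrum all 10 members passed edgeR's test over all genes (adjusted p under 0.05), where 84.3% of the 17413 genes tested did so. Of these, 8 were lower in thymus, and Cry1 and Arntl were higher. Against WT cerebellum the thymus again differed in 10 of 10 members (83.5% of all genes), with the same 8 lower and the same pair higher. Between WT cerebellum and WT cerebrum 6 of 10 passed (51.1% of all genes), 4 lower and 2 higher in cerebellum. The members' shares exceed the background little, since most genes differ between these organs, so their directions and sizes are what is described here. The median log2 fold change of the members was -2.43 for thymus against cerebrum, where that of all genes tested was 0.06, and -2.31 for thymus against cerebellum (all genes -0.01). For cerebellum against cerebrum it was -0.22 (all genes 0.03). The 3 comparisons share their WT libraries.

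**Figure D1:**
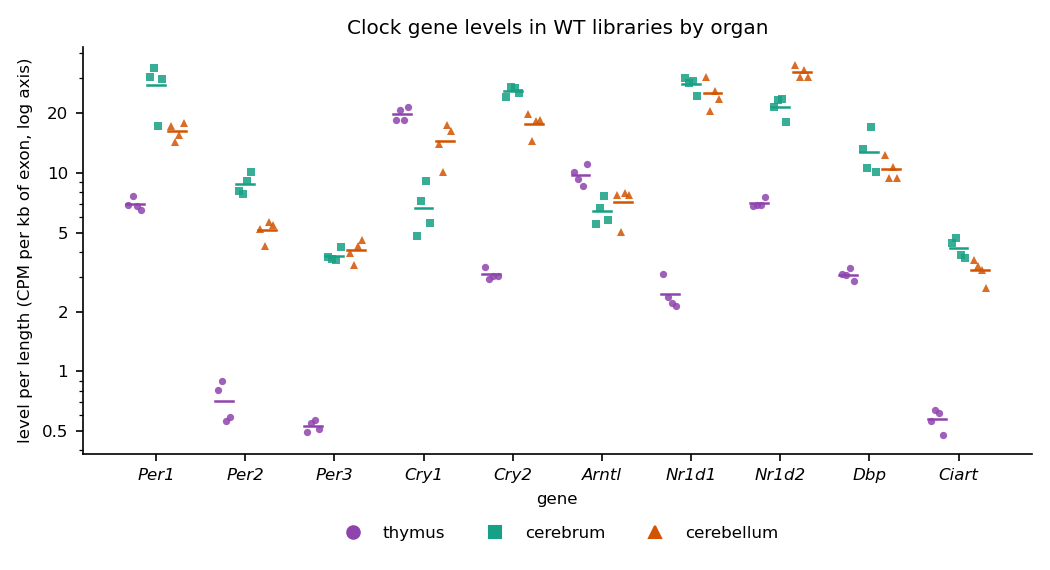
Levels of the 10 clock genes in the 12 WT libraries, as CPM per kb of exon on a log axis; points are single libraries, lines the means of 4, and colours and shapes the organs. Cry1 and Arntl are the only genes whose thymus mean lies above both brain means, and Nr1d1, Per2, Cry2, Per3 and Ciart lie far lower in thymus.

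Among the repressors, Cry1 was at 61.5, 69.4, 61.8 and 71.5 CPM in WT thymus, 15.99, 23.99, 30.3 and 18.6 CPM in WT cerebrum, and 46.7, 33.6, 57.9 and 54.1 CPM in WT cerebellum. Its paralog Cry2 was at 18.4 to 21.2 CPM in WT thymus, 152 to 171 CPM in WT cerebrum and 91.6 to 125 CPM in WT cerebellum. The pair thus had opposite orders, with Cry1 highest in thymus and Cry2 lowest there, and thymus did not overlap either brain region for Cry2. For thymus against cerebrum the log2 fold change was 1.60 for Cry1 (SE 0.20, edgeR adjusted p = 7.2e-06) and -3.04 for Cry2 (SE 0.10, edgeR adjusted p = 1.26e-11). The higher Cry1 level of thymus than of cerebellum, with 0.49 as the log2 fold change (edgeR adjusted p = 0.0313), lost its call when any of thymus WT 2, thymus WT 4, cerebellum WT 1 or cerebellum WT 2 was left out, with adjusted p from 0.051 to 0.0839.

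The Period genes were all lowest in thymus. Per2 was at 3.31 to 5.23 CPM in WT thymus against 45.7 to 59.3 CPM in WT cerebrum, a log2 fold change of -3.60 (SE 0.16, edgeR adjusted p = 2.7e-10), the largest of the members. Per3 was at 4.75 to 5.49 CPM in WT thymus, 34.8 to 40.6 CPM in WT cerebrum and 33.0 to 44.0 CPM in WT cerebellum. Cerebrum and cerebellum overlapped for Per3, and its log2 fold change of 0.08 did not pass (edgeR adjusted p = 0.532). Per1 and Per2 were lower in cerebellum than in cerebrum, with log2 values of -0.78 for both (edgeR adjusted p = 0.0019 and 6.46e-04).

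Of the receptors that repress Arntl, Nr1d1 was at 6.61 to 9.49 CPM in WT thymus, 75.5 to 92.0 CPM in WT cerebrum and 62.9 to 94.1 CPM in WT cerebellum, and Nr1d2 at 36.7 to 40.8, 97.6 to 127 and 164 to 188 CPM. Both were lower in thymus than in cerebrum, with log2 fold changes of -3.49 and -1.59, and Nr1d2 alone of the pair passed between the brain regions, higher in cerebellum by 0.57 (SE 0.08, edgeR adjusted p = 1.27e-04). The activator Arntl was at 64.8 to 83.6 CPM in WT thymus and 41.7 to 57.3 CPM in WT cerebrum, higher in thymus by 0.64 log2 units (SE 0.15, edgeR adjusted p = 0.0015). Both outputs were lower in thymus: Dbp was at 8.52 to 9.88 CPM there and 30.2 to 50.9 CPM in cerebrum, and Ciart at 1.08 to 1.45 CPM, from 27 to 36 counts a library, and 8.45 to 10.7 CPM. The lower Ciart level of cerebellum than of cerebrum, with -0.39 as the log2 fold change (edgeR adjusted p = 0.0373), lost its call without the filter on low counts (adjusted p = 0.0535), with all 22 libraries in one fit (adjusted p = 0.123) and without cerebrum WT 1, cerebrum WT 2, cerebellum WT 3 or cerebellum WT 4 (adjusted p from 0.0528 to 0.107).

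Per length, as CPM per kb of exon, the order of the members differed by organ. In WT thymus Cry1 led with a mean of 19.8 ± 1.54 (SD, n = 4), above Arntl with 9.79 ± 1.08, and neither overlapped its neighbours. Per3 was last with 0.53 ± 0.03, and its range overlapped that of Ciart. In WT cerebrum Nr1d1 (27.9 ± 2.36), Per1 (27.8 ± 7.27) and Cry2 (25.8 ± 1.42) led and overlapped one another, while Cry2 did not overlap Nr1d2, the next in order. Per1, from 17.2 to 33.8, did overlap Nr1d2, from 18.0 to 23.5. In WT cerebellum Nr1d2 led with 32.2 ± 2.11 and overlapped Nr1d1 with 25.1 ± 4.25. Parts of this order depend on the length used, here that of all annotated exons together. Per kb of the longest transcript, Cry2 led in WT cerebrum with a mean of 40.9, above Per1 (33.5) and Nr1d1 (31.6). In WT thymus Ciart was then last (0.67), below Per2 (0.72) and Per3 (0.85), with Cry1 (21.8) and Arntl (18.4) still first. Nr1d2 still led in WT cerebellum (37.3).

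The other genes of the clock were described from a list of 23. In thymus against cerebrum 14 passed as lower and 4 as higher, in thymus against cerebellum 15 as lower and 6 as higher, and in cerebellum against cerebrum 11 as lower and 10 as higher. These are 78.3%, 91.3% and 91.3% of the list, where 84.3%, 83.5% and 51.1% of all genes tested passed. Clock, the partner of Arntl, was lower in thymus than in cerebrum (log2 fold change -2.11), and Npas2, which can replace Clock, was lower as well (-2.86) and was also lower in cerebellum than in cerebrum (log2 fold change -3.20, edgeR adjusted p = 4.94e-08). Rora and Rorb, orphan receptors that activate Arntl, were lower in thymus than in cerebrum (log2 fold changes -3.04 and -8.50). Of the factors that share the D-box with Dbp, Hlf (log2 fold change -7.99) and Tef were lower in thymus than in cerebrum, as was Nfil3, a repressor at the same box (-1.46). Bhlhe40, a repressor at E-boxes, was lower (-3.33) and Timeless was higher (3.37). Further genes lower in thymus than in both brain regions included Arntl2, Fbxl21, Btrc, Fbxw11, Cipc and Usp2, and Csnk1d was higher than in both. Nampt passed as higher in thymus than in cerebrum alone, and Bhlhe41 as lower and Csnk1e, Wee1 and Klf10 as higher than in cerebellum alone. Between the brain regions Clock, Rora, Bhlhe41, Fbxl21, Fbxw11, Timeless, Cipc and Nampt were higher in cerebellum, and Arntl2, Rorb, Tef, Hlf, Bhlhe40, Csnk1d, Csnk1e, Btrc, Wee1 and Klf10 lower, beside Npas2. Whether the cerebrum samples held hypothalamus with the suprachiasmatic nucleus is not stated in the sources used here. The 6 hypothalamic markers summed to at most 49.6 CPM in cerebrum and 83.2 CPM in cerebellum. Of these, Avp, Oxt and Hcrt stayed under 3 counts in every WT cerebrum library. The sum cannot settle whether the nucleus was present.

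Tol and WT mice were then compared within each organ, the comparison the study made to look for effects of the transgene. Per1 was lower in every Tol library than in every WT library of the same organ. In thymus it was at 30.9, 29.7, 29.99 and 28.3 CPM in Tol mice, compared with 38.6, 42.9, 38.4 and 36.6 CPM in WT mice. In cerebrum the Tol libraries stood at 73.3, 41.8, 80.1 and 41.5 CPM and the WT libraries at 171, 190.5, 96.9 and 166.5 CPM. The libraries labelled cerebellum Tol 1 and Tol 2 stood at 49.3 and 48.9 CPM, below the WT cerebella at 97.5, 80.6, 87.7 and 101 CPM. Genotypes did not overlap in any organ, though in cerebellum Tol 1 is the only Tol library that fits its label, and the Tol cerebra split into 2 higher and 2 lower libraries.

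The Per1 log2 fold change was -0.39 in thymus (SE 0.07, edgeR adjusted p = 0.0548), -1.40 in cerebrum (SE 0.27, edgeR adjusted p = 0.187) and -0.87 in cerebellum (SE 0.12, edgeR adjusted p = 0.957), or 76.2%, 38.0% and 54.6% of the WT level. None passed edgeR's threshold of 0.05. DESeq2 called Per1 in all 3 organs (adjusted p = 2.02e-04, 5.22e-05 and 7.09e-07), so the call depends on the tool. In thymus edgeR also called it with no filter on low counts (adjusted p = 0.0426), with at least 10 counts in every library (0.0416), with robust moderation (0.0443) and without thymus Tol 1 (0.00831). In cerebrum it did so with all 22 libraries in one fit (adjusted p = 0.00619). Over all alternatives the adjusted p ranged from 2.02e-04 to 0.404 in thymus and from 5.22e-05 to 0.518 in cerebrum, and no alternative turned the direction. Without cerebellum Tol 2 the cerebellum value was -0.90, and without cerebellum Tol 1 it was -0.86. The cerebrum value was -1.57 without WT 3, the WT library with the least Per1, -1.58 without Tol 3 and -1.26 without Tol 4, none of them called. The part of the thymocyte and pineal and pituitary markers of these libraries in the result was not tested. Whether the difference is larger in cerebrum than in thymus did not pass in edgeR (log2 difference -1.01, SE 0.29, adjusted p = 0.129) and passed in DESeq2 (adjusted p = 0.0319).

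Of the 14086 genes tested in all 3 organs, 8 were lower in every Tol library than in every WT library of each organ, which is 0.0568%, and 1 of the 10 members was among them. The other 7 were Zfp276, Tns3, Atg4b, Plat, Mid1, Acer2 and Txlna. This joint count was chosen after the Per1 values were seen, uses cerebellum Tol 2, and the organs may come from the same mice.

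**Figure D2:**
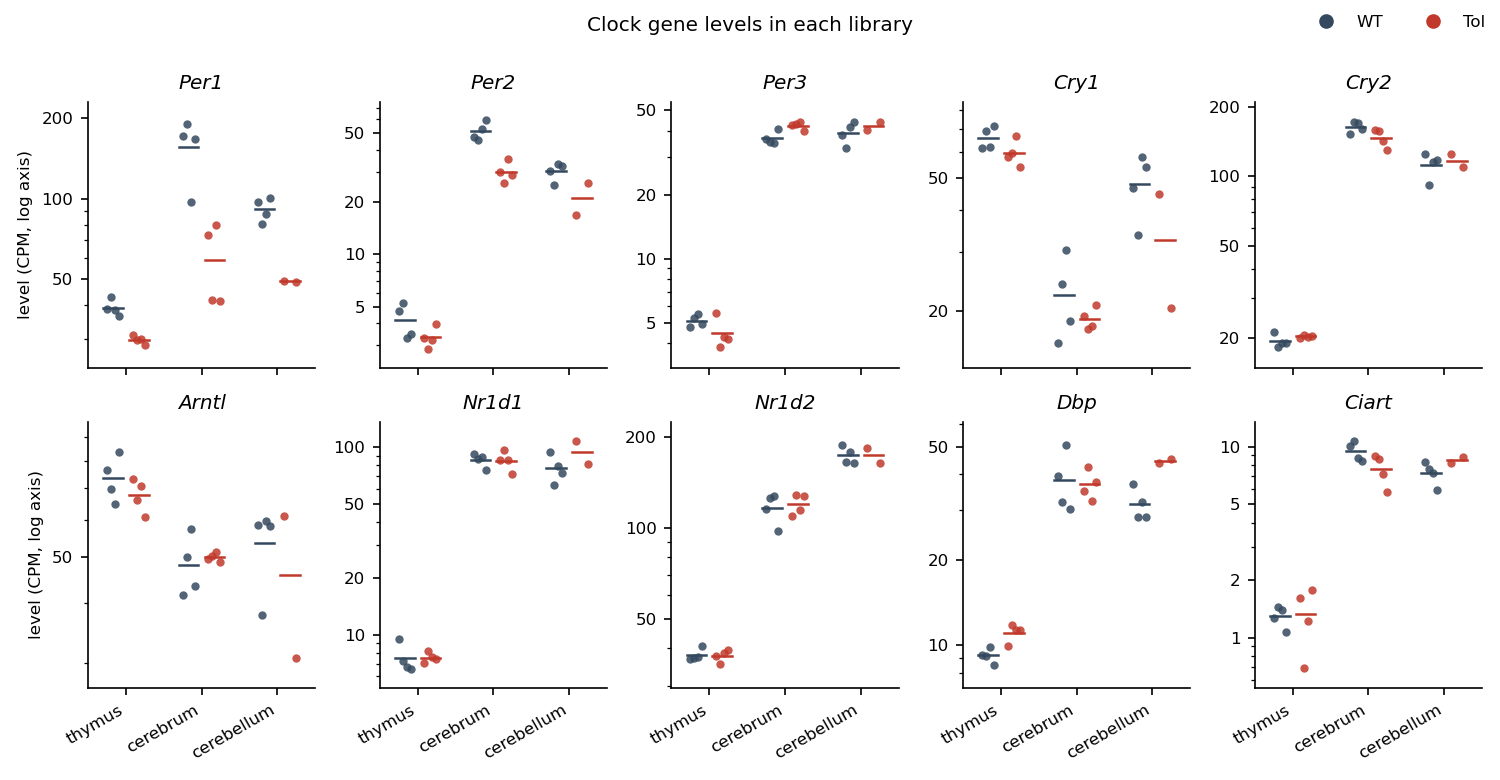
CPM of each clock gene on a log axis, by organ, in WT (dark) and Tol (red) libraries; points are single libraries and lines the group means (n = 4, but 2 for Tol cerebellum). Per1 is the gene whose red points lie below its dark points in all 3 organs; Per2 does so in cerebrum, and Dbp lies higher in Tol thymus and cerebellum.

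Per2, the other Period gene that answers to acute signals, was lower in Tol cerebrum: 29.9, 25.9, 35.5 and 28.7 CPM in Tol against 47.4, 45.7, 53.1 and 59.3 CPM in WT mice. Those groups did not overlap. The log2 fold change was -0.77 (SE 0.12, edgeR adjusted p = 0.143). By p it ranked 8 among the 15596 genes tested, ahead of Per1 at rank 45. DESeq2 (adjusted p = 3.06e-06) and the fit over all 22 libraries (0.0491) called it. Without Tol 3, Tol 4 or WT 3 it was -0.86, -0.76 and -0.76. In thymus (log2 fold change -0.32, edgeR adjusted p = 0.285) and cerebellum (-0.47, edgeR adjusted p = 0.957) the genotypes overlapped. In cerebellum the value was -0.84 without Tol 2 and -0.19 without Tol 1, so 1 library decided its size.

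Per3 did not follow. It was at 42.5, 43.0, 43.8 and 39.7 CPM in Tol cerebrum against 36.4, 35.4, 34.8 and 40.6 CPM in WT cerebrum, higher by 0.20 on the log2 scale (SE 0.07, edgeR adjusted p = 0.392) with Tol 4 below WT 4. In thymus 3 of 4 Tol libraries, at 3.82 to 4.26 CPM, lay below all WT libraries, at 4.75 to 5.49 CPM, while Tol 1 lay above them at 5.56 CPM. The log2 fold change there was -0.18 (edgeR adjusted p = 0.436). The difference of the genotype effect between cerebrum and thymus was 0.37 (edgeR adjusted p = 0.21) and passed only without thymus Tol 1 (0.52, adjusted p = 0.0179).

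Dbp was higher in Tol mice in thymus and cerebellum. In thymus the Tol libraries stood at 9.91, 11.7, 11.3 and 11.3 CPM and the WT libraries at 9.21, 9.20, 9.88 and 8.52 CPM. In cerebellum the Tol libraries stood at 43.7 and 45.1 CPM and the WT libraries at 37.0, 28.3, 31.9 and 28.2 CPM. Neither organ had an overlap, though thymus Tol 1 lay close to WT 3. In cerebrum the groups overlapped, from 32.3 to 42.5 CPM in Tol libraries and from 30.2 to 50.9 CPM in WT libraries. The log2 fold changes were 0.27 (SE 0.09, edgeR adjusted p = 0.126), 0.53 (SE 0.14, edgeR adjusted p = 0.957) and -0.05 (SE 0.16, edgeR adjusted p = 0.953). Without thymus Tol 1 edgeR called Dbp in thymus (log2 fold change 0.33, adjusted p = 0.0313). On CPM without TMM scaling the thymus groups overlapped, with 11.5 as the lowest Tol and 11.7 as the highest WT value, so the gap in thymus rests on the scaling. In cerebellum the gap stayed with either scaling, and the log2 fold change was 0.48 without Tol 2 and 0.57 without Tol 1.

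The cryptochromes, Arntl, the REV-ERB receptors and Ciart overlapped between genotypes in every organ. In thymus and cerebrum their log2 fold changes lay between -0.31 for Ciart in cerebrum and 0.07 for Cry2 in thymus, with edgeR adjusted p from 0.25 to 0.975. Nr1d1 (0.01 and -0.01 in thymus and cerebrum) and Nr1d2 (-0.01 and 0.05) were the closest to 0. On CPM without TMM scaling Ciart did not overlap in cerebellum, with Tol libraries from 7.83 to 8.63 and WT libraries from 5.83 to 7.65.

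In total 0 of 10 members passed edgeR's test in thymus, cerebrum or cerebellum, where 0.0985%, 0.0% and 0.0% of all genes did. At an unadjusted p under 0.05, 2 members in thymus, 3 in cerebrum and 2 in cerebellum were counted. Of all genes, 3965 of 16248, 1506 of 15596 and 527 of 16662 were counted there. DESeq2 called 1, 2 and 1 members, and 1267 of 13094, 184 of 14657 and 10 of 13741 genes. In thymus the members' share was below that of all genes at an unadjusted p, and near it in DESeq2. For the difference of the effect between cerebrum and thymus edgeR called 0 members and 0.107% of all genes. At an unadjusted p under 0.05 it counted 4 members and 2925 of 17774 genes, and DESeq2 called 1 member and 495 of 13612 genes. The genotypes did not overlap for 2 members in thymus (Per1 and Dbp), 2 in cerebrum (Per1 and Per2) and 2 in cerebellum (Per1 and Dbp), against 11.6%, 6.45% and 10.5% of all genes. In cerebellum that count rests on Tol 1 and on Tol 2, which went against its label. The members' median log2 fold change was -0.06, -0.10 and 0.06 (0.12 in cerebellum without Tol 2, -0.02 without Tol 1), and that of all genes tested 0.01, 0.00 and 0.01.

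**Figure D3:**
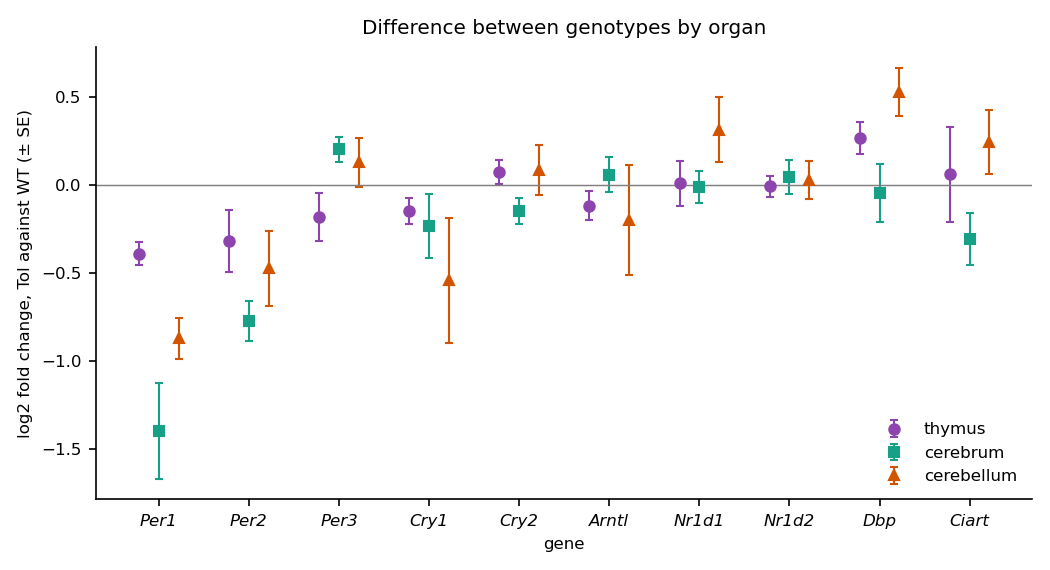
Log2 fold change of Tol against WT mice for each clock gene in thymus, cerebrum and cerebellum (edgeR estimate; bars are ± SE). Per1 is negative in each organ, from -0.39 to -1.40, and Nr1d2 lies within 0.05 of 0 in each.

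Of the 23 other clock genes, edgeR called 0 in each organ, where 0.0985%, 0.0% and 0.0% of all genes were called. Bhlhe40 in cerebrum had the lowest p of the list there (log2 fold change -0.85, edgeR adjusted p = 0.158), Btrc in thymus (0.28, edgeR adjusted p = 0.0841) and Tef in cerebellum (0.33, edgeR adjusted p = 0.957, and 0.34 without Tol 2). In thymus 14 of the 22 tested had negative values and in cerebrum 11 of 23. Of all genes tested, 7895 of 16248 and 8012 of 15596 were negative there. Klf10, a clock-controlled zinc finger factor, was the 1 gene of the list called for the difference of the effect between cerebrum and thymus (-1.01, SE 0.17, edgeR adjusted p = 0.0341), with log2 fold changes of -0.87 in cerebrum and 0.13 in thymus. That is 4.35% of the list, where 0.107% of all genes were called. The list's summed level overlapped between genotypes in every organ, for thymus from 1145 to 1219 CPM in Tol libraries and from 1152 to 1257 CPM in WT libraries.

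Because Per1 answers to hormones and neuronal activity as well as to the clock, the levels of lists of such genes are given beside it. The summed level of 17 glucocorticoid-responsive genes was lower in every Tol than in every WT library in each organ. In thymus the Tol libraries ranged from 723 to 797 CPM and the WT libraries from 826.5 to 978 CPM. The ranges were 648 to 807 against 817 to 1008 CPM in cerebrum, and 574.5 to 672 against 856 to 979 CPM in cerebellum. There Tol 1 gave the 672 CPM, and Tol 2, which went against its label, the 574.5 CPM. Of the 17 genes, 13, 16 and 15 had negative log2 fold changes in thymus, cerebrum and cerebellum, with medians of -0.12, -0.41 and -0.51. Of all genes tested, 7895 of 16248, 8012 of 15596 and 8036 of 16662 were negative, the background for the lists below as well. EdgeR called 1 of the 17, Klf9 in thymus (log2 fold change -0.83, edgeR adjusted p = 0.0233), where 0.0985% of all genes were called. In cerebrum and cerebellum the lowest p of the list belonged to Ddit4 (-0.52, edgeR adjusted p = 0.196) and Mt2 (-0.70, edgeR adjusted p = 0.957). Without cerebellum Tol 2 the median there was -0.63, again with 15 of 17 negative, and Mt2 was at -0.73. The part of the hormone in the Per1 difference was not tested.

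The summed level of 16 immediate early genes, which neurons switch on within minutes of activity, overlapped between genotypes in every organ. In cerebrum it ranged from 999.5 to 2014 CPM in Tol libraries and from 1649 to 3669 CPM in WT libraries. WT 3 was the lowest WT library for this sum and for Per1, and Tol 1 and Tol 3, at 1865 and 2014 CPM, were the Tol libraries with the higher Per1. In cerebrum 14 of the 16 genes had negative values with a median of -0.76, in thymus 10 of 14 with a median of -0.11, and in cerebellum 8 of 16 with a median of 0.08. Egr2 (log2 fold change -0.35, edgeR adjusted p = 0.0937), Fosl2 (-1.04, edgeR adjusted p = 0.236) and Nr4a3 (-2.47, edgeR adjusted p = 0.957) had the lowest p of the list in thymus, cerebrum and cerebellum. None was called. Without cerebellum Tol 2 the median in cerebellum was -0.77 with 11 of 16 negative, and Nr4a3 was at -2.06. Without cerebellum Tol 1 the median was -0.02 with 8 of 16 negative. The part of the immediate early genes in the Per1 result was not tested.

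**Figure D4:**
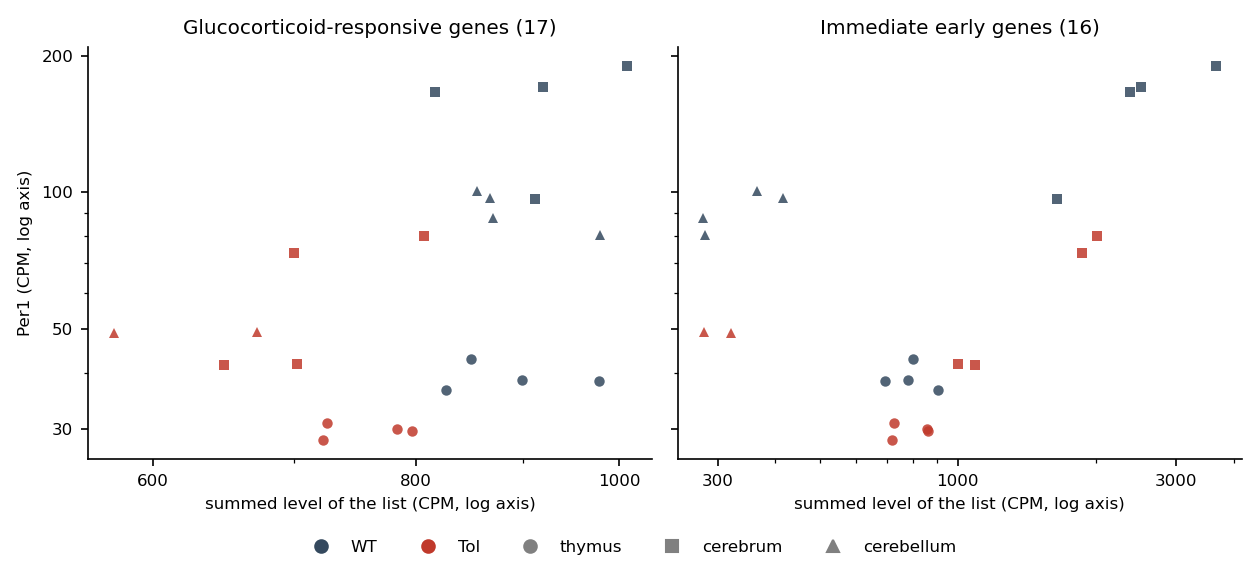
Per1 level against the summed level of glucocorticoid-responsive genes (left) and immediate early genes (right) in each of the 22 libraries, in CPM on log axes; colours mark the genotype and shapes the organ. Within each organ the red Tol points lie left of and below the dark WT points on the left panel; on the right panel the genotypes overlap along the axis of the immediate early genes.

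The summed level of 16 heat shock genes, whose products keep other proteins folded, did not overlap between genotypes in thymus. It ranged from 4329 to 4968 CPM in Tol libraries and from 5364 to 6149 CPM in WT libraries, with 14 of 16 negative. Hsph1 was called there (log2 fold change -1.22, edgeR adjusted p = 0.0303), where 0.0985% of all genes were called. In cerebrum (14 of 16 negative, median -0.08) and cerebellum (10 of 16 negative, median -0.02) the sums overlapped. The cold-inducible genes Cirbp and Rbm3 had positive values in each organ, with medians of 0.80, 0.18 and 0.38 in thymus, cerebrum and cerebellum. Neither was called, and their sums overlapped in each organ. Without cerebellum Tol 2 the cerebellum medians were -0.20 for the heat shock genes, with 15 of 16 negative, and 0.63 for the cold-inducible pair, and without Tol 1 they were 0.08 and 0.02. The 6 thymocyte markers summed to between 6289 and 8064 CPM in Tol thymus, against 7813 to 9060 CPM in WT thymus, while 4 of the 6 had positive log2 fold changes. The part of these differences in the Per1 and Dbp results was not tested.

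In cerebellum, Cry1 and Arntl were lowest in the libraries with the least granule cell markers. Cry1 was at 44.8 and 20.3 CPM in Tol 1 and Tol 2, compared with 46.7, 33.6, 57.9 and 54.1 CPM in WT mice. Arntl was at 61.3 and 30.7 CPM in Tol 1 and Tol 2, compared with 58.5, 37.8, 59.6 and 58.2 CPM in WT mice. For both genes the lowest libraries were Tol 2 and then WT 2, which were also the lowest in granule cell markers, at 147 and 1944 CPM. Among the other 4 no such order held for Cry1, since Tol 1 had the most granule cell markers (4508 CPM) and the least Cry1. The part of the cell makeup in these levels was not tested. The log2 fold change of Cry1 was -0.54 with all 6 libraries (edgeR adjusted p = 0.957), -0.10 without Tol 2 and -1.20 without Tol 1. That of Arntl was -0.20 (edgeR adjusted p = 0.958), 0.19 without Tol 2 and -0.76 without Tol 1, so the direction rested on 1 library. Nr1d2 was at 185 and 164 CPM in the Tol cerebella, within or at the edge of the WT range of 164 to 188 CPM, with a log2 fold change of 0.03 (0.09 without Tol 2). Per3, Cry2, Nr1d1 and Ciart had log2 fold changes of 0.13, 0.09, 0.31 and 0.24 with all libraries, and 0.03, 0.15, 0.48 and 0.16 without Tol 2.

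**Figure D5:**
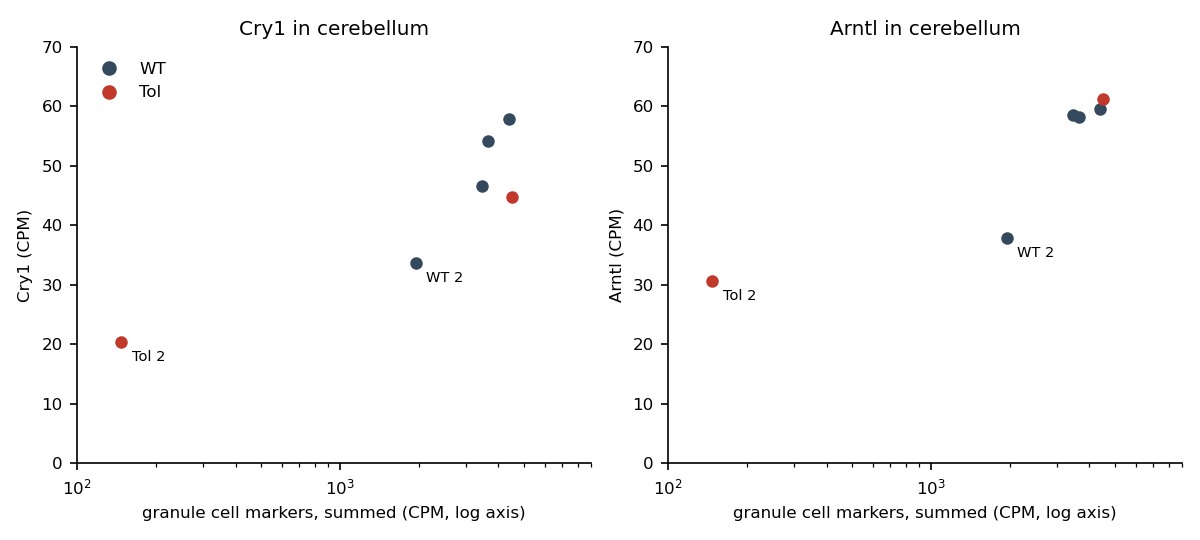
Cry1 (left) and Arntl (right) in CPM against the summed CPM of 6 granule cell markers (log axis) in the 6 cerebellum libraries, WT dark and Tol red. Tol 2 and WT 2, named in the plot, are lowest on both axes, with Arntl at 30.7 and 37.8 CPM against 58.2 to 61.3 CPM in the other 4.

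The spread between mice within a group also differed between members. In cerebrum the pooled SD of log2(CPM + 1) within genotypes was 0.47 for Per1, above 95.5% of the genes tested, and 0.08 for Per3, above 13.5%. The median gene was at 0.15. In thymus Cry2 (0.06), Nr1d2 (0.07), Per1 (0.08) and Dbp (0.09) varied less than the median gene (0.13), while Per2 (0.21) and Ciart (0.24), the members with the fewest counts there, varied most. In cerebellum Cry1 (0.49) and Arntl (0.44) varied most of the members, against a median of 0.21.

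In the textbook clock Arntl peaks when Dbp is low, and Per3 and Dbp peak near each other, so their levels across mice were compared in 6 relations on log2(CPM + 1), with exact permutation tests, two-sided and adjusted by Benjamini-Hochberg over the 6. In thymus Arntl and Dbp had a Pearson r of -0.74 over 8 mice (exact permutation p = 0.0354, adjusted 0.149; Spearman rho -0.52, exact permutation p = 0.197, adjusted 0.59). Without the 2 libraries farthest from the median of Dbp, r was -0.56, and on deviations from the genotype means it was -0.76 (approximate permutation p = 0.0275). Per3 and Dbp in thymus had an r of -0.72 (exact permutation p = 0.0496, adjusted 0.149; rho -0.57, exact permutation p = 0.151, adjusted 0.59), which stayed at -0.72 without the 2 farthest and was -0.57 on deviations from the genotype means (approximate permutation p = 0.143). Neither relation passed after adjustment. The sign for Arntl with Dbp was that of the textbook clock, and the sign for Per3 with Dbp was the opposite of it. The permutation p on deviations were not adjusted, and they are approximate because deviations were exchanged across genotypes.

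In cerebrum r was 0.48 for Arntl with Dbp (exact permutation p = 0.228, adjusted 0.456; rho 0.33, exact permutation p = 0.428, adjusted 0.856) and -0.37 for Per3 with Dbp (exact permutation p = 0.368, adjusted 0.553; rho -0.24, exact permutation p = 0.582, adjusted 0.873). Without the 2 farthest libraries, WT 3 and WT 4, these became -0.41 and 0.12, so both rested on those libraries. In cerebellum r was -0.19 for Arntl with Dbp (exact permutation p = 0.644, adjusted 0.644; rho 0.03) and 0.34 for Per3 with Dbp (exact permutation p = 0.546, adjusted 0.644; rho -0.03) over 6 mice. Without the 2 Tol libraries, the farthest, they were 0.51 and 0.03 over 4 mice. Both rho had an exact permutation p of 1.0 there, and on deviations from the genotype means r was 0.23 and 0.05. In the cerebrum these were 0.51 and -0.57.

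Genes were also ranked by how closely they followed Dbp over the 22 libraries, on deviations of log2(CPM + 1) from the mean of each organ and genotype, among 9424 genes with a mean of at least 5 CPM in each organ. These are descriptions across libraries of different depth and makeup, with no test. The 5 highest were Rabl3 (r = 0.81), Fam49b (0.78), Mthfd1l (0.76), Rap1gap (0.75) and Slc29a1 (0.74), and the 5 lowest Cntrl (-0.81), Gm48493 (-0.76), Ripk1 (-0.75), Apex2 (-0.74) and Olfr1152 (-0.73). Among the members Nr1d2 (0.54) and Nr1d1 (0.44) were the most alike to Dbp and Per1 (-0.65) the least, with Cry2 at 0.27, Cry1 at 0.22, Arntl at 0.17, Ciart at 0.02, Per2 at -0.11 and Per3 at -0.29.

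The same ranking for Per1, chosen after its values were seen, gave Nr4a1 (0.97), Dusp1 (0.92), Btg2 (0.89), Dusp6 (0.88) and Junb (0.86) as the highest. Nr4a1, Btg2 and Junb are in the list of immediate early genes and Dusp1 is in the glucocorticoid list. Since the deviations are taken within organ and genotype, the ranking does not describe the difference between Tol and WT mice. The lowest were Gnal (-0.82), Srgn (-0.78), Txnrd1 (-0.77), Tpm2 (-0.77) and Setd3 (-0.76). Per2 (0.24) and Per3 (0.30) followed Per1 less than these genes did. Per1 varied most among the 8 cerebrum libraries, where Nr4a1 spanned 45.3 to 162 CPM in Tol mice and 74.3 to 252 CPM in WT mice.

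Some members share their locus with other genes, and whether the counting used the strand of the reads is not stated. Per3 overlaps Camta1 on the same strand. On the other strand Cry2 overlaps D930015M05Rik, Arntl overlaps Gm45355, Nr1d1 overlaps Thra, Dbp overlaps Sphk2 and Ciart overlaps C920021L13Rik, so their counts are less certain than those of Per1 (chr11:69095217-69109960, plus strand, GRCm38), Per2 (chr1:91415982-91459324, minus strand), Cry1 and Nr1d2, for which the annotation lists no overlap.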

How the data were processed

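RNA-seq was measured in 22 tissue samples. Single-end reads from a stranded poly(A) kit were quantified by the authors with Salmon 0.14.1 against Ensembl GRCm38 cDNA to which Tol had been added. The files deposited hold estimated counts, whole and not normalized, 1 row for each gene. The submitters' processing notes also name edgeR 3.9. Genotype, organ and replicate number come from the labels. In the tables the transgenic mice carry another short name, MRT, which was read as Tol because it abbreviates the series' description of that mouse and is the only name besides WT, with the replicate number taken from the column name.

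Symbols and positions are from GENCODE vM21, which held 34530 of the identifiers. Counts were analysed in R 4.3.3 with edgeR 4.0.16 (TMM, filterByExpr, quasi-likelihood F test, Benjamini-Hochberg over all genes tested), per organ, over 16 libraries for the difference between organs, and over the 12 WT libraries between organs. EdgeR's common biological coefficient of variation came to 11.2% (thymus), 16.6% (cerebrum) and 33.2% (cerebellum). The test was checked on simulated counts. Alternatives were DESeq2 1.42.0, its size factors within edgeR, no filter, a minimum of 10 counts per library, robust moderation, 1 fit of all libraries, a correction for GC content and length, the replicate number as a block, each library left out, and for correlations a pseudocount of 0.1 in place of 1. CPM without TMM scaling was added after seeing the data. The members and lists were chosen with earlier results of these data known. Named genes are all members, of each list its called genes or that with the lowest p, and the 5 most and least like Dbp. Some genes of the list of other clock genes are counted but not reported here by name. The labels do not say which organs share a mouse. The study had 4 mice of each genotype, and other cerebellum libraries are not analysed here.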

Additional observations from a re-analysis of the deposited data

Results flagged for a closer look

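Within the groups of 4 libraries, each member's level was examined for 1 library far from the other 3, with Dixon's criterion on log2(CPM + 1). Of 50 such groups 2 met it, where chance gives about 2.5. Arntl was at 37.8 CPM in cerebellum WT 2, against 58.2 to 59.6 CPM in the other WT cerebella, and that library was also the lowest WT library in granule cell markers. Nr1d2 was at 40.8 CPM in thymus WT 4, against 36.7 to 37.4 CPM in the other WT thymi.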

How the results depend on the processing

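Ciart in thymus rests on 15 to 65 counts a library, which limits its precision. The number of members called for Tol against WT was 0 in each organ and moved to 1 in thymus with DESeq2, no filter, at least 10 counts in every library or robust moderation, to 2 in cerebrum with DESeq2 or all 22 libraries in one fit, and to 1 in cerebellum and for cerebrum minus thymus with DESeq2. Leaving out 1 library gave 0 to 2 in thymus, 0 in cerebrum and cerebellum, 0 to 1 for cerebrum minus thymus, and 10, 9 to 10 and 5 to 6 between the WT organs. On CPM without TMM scaling, 1 member in place of 2 did not overlap in thymus. The count of all genes called in thymus was 16, and was 130 with no filter, 85 with at least 10 counts, 38 with robust moderation, 29 with all 22 libraries, 42 with the GC and length trend removed, 5 with the block and 1267 with DESeq2. In cerebrum it was 0, 25 with all 22 libraries and 184 with DESeq2, in cerebellum 0 and 10 with DESeq2, and for cerebrum minus thymus 19, 48 with at least 10 counts, 4 with the block and 495 with DESeq2. The cause was not tested. With the replicate block, 0 members were called in each comparison of genotypes and 10, 10 and 6 between organs, so it changed no call. Whether the numbers pair Tol with WT mice could not be decided from so few libraries. Libraries 1 and 2 in cerebrum and 2 in cerebellum matched their own number best, and none did in thymus. Correlations of same-numbered deviations ran from -0.06 to 0.04 in thymus, from -0.19 to 0.13 in cerebrum and from -0.15 to 0.52 in cerebellum. Across organs they ran from 0.001 to 0.073, under the 0.1 asked for, but in 12 of 16 pairs a library matched its own number best, a hint that organs may share mice.

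With 1 library left out, r of Arntl with Dbp ran from -0.82 to -0.57 in thymus, from -0.0181 to 0.77 in cerebrum and from -0.54 to 0.55 in cerebellum. That of Per3 with Dbp ran from -0.81 to -0.59, from -0.64 to 0.0638 and from -0.22 to 0.74. On deviations from the genotype means, r of Arntl with Dbp in cerebellum turned to 0.23 and that of Per3 with Dbp in thymus weakened to -0.57.

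Signs turned for 13 fold changes, with sizes up to 0.20 on the log2 scale and none called. Leaving out 1 library, the log2 fold change in thymus ran from -0.0584 to 0.15 for Nr1d1, from -0.0273 to 0.0214 for Nr1d2 and from -0.0934 to 0.26 for Ciart. In cerebrum it ran from -0.00424 to 0.15 for Arntl, from -0.0800 to 0.0491 for Nr1d1, from -0.0283 to 0.0900 for Nr1d2 and from -0.14 to 0.12 for Dbp. In cerebellum it ran from -0.0191 to 0.15 for Cry2, from -0.76 to 0.19 for Arntl and from -0.0461 to 0.0861 for Nr1d2. For cerebrum minus thymus it ran from -0.21 to 0.10 for Cry1, from -0.16 to 0.0507 for Nr1d1 and from -0.0243 to 0.10 for Nr1d2. Removing the trend with GC content and length gave -0.0193 for Ciart in thymus, and 0.0237 for Nr1d1, -0.0051 for Nr1d2 and 0.0060 for Dbp in cerebrum.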
